A study of Mus musculus with 4 samples.

Results

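The 4 Hox clusters of the mouse were examined in ATAC-seq peak lists of developing T cells. They were taken as the 39 protein-coding genes named Hoxa, Hoxb, Hoxc or Hoxd plus a number, among 21887 protein-coding genes in a RefSeq table of the mouse genome (GRCm38, the same build as mm10). A peak belonged to a cluster when its midpoint lay between the first and the last gene of that cluster or within 50 kb outside. This gave 28 peaks, which merged into 20 of the 107621 regions formed by all peaks of the 4 lists (peaks sharing at least 1 bp). Hoxa holds 11 genes (chromosome 6, with its last base, 52260880, in Hoxa13), Hoxb 10 (chr11:96194316-96368254), Hoxc 9 (chr15:102921131-103036856) and Hoxd 9 (chr2:74668225-74765142).

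ATAC-seq uses a transposase that inserts sequencing adapters into open chromatin, and a peak marks a stretch with many insertions. All 4 samples were sorted from the thymus of untreated C57BL/6J mice, wild type and 5 to 7 weeks old. Of these, 2 (DN 1 and DN 2) were CD4-CD8- double-negative cells of the CD25+CD44-/+ gate, and 2 (DP 1 and DP 2) were CD4+CD8+ double-positive cells, a later stage. Separate animals are not named in the labels, so the spread between 2 samples of a group may be technical. The lists held 38808 and 33131 peaks in DN 1 and DN 2, and 39718 and 70385 in DP 1 and DP 2. Depth is unknown because no counts of reads come with them, so closed chromatin and shallow sequencing both leave a site without a peak. With 2 samples against 2, an exact permutation test cannot give a two-sided p below 0.333.

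Hox genes encode homeodomain transcription factors that give cells their position along the body axis. They lie in rows whose order follows the order of their expression, with paralog group 1 at one end of a cluster and group 13 at the other. Polycomb proteins keep the clusters silent, in broad domains of modified histones, in cells that do not use them, and trithorax proteins such as MLL keep them active. In the blood system, genes of the Hoxa cluster such as Hoxa7, Hoxa9 and Hoxa10, and Hoxb4, are known from stem and progenitor cells, and several are known from leukaemia.

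The sequences at 3 Hox starts are shown first. Those of Hoxa7 and Hoxb4 were chosen because both DP lists held a region inside the gene downstream of the start, and that of Hoxa13 because a region of DP 2 covered the start. The promoters run from 250 bases before to 50 after the annotated start, 5′ to 3′ on the strand of the gene, from RefSeq (GRCm38.p6), and capitals mark each CG dinucleotide. They lie at chr6:52218524-52218823 (minus strand, Hoxa7), chr11:96318017-96318316 (plus strand, Hoxb4) and chr6:52260831-52261130 (minus strand, Hoxa13).
Hoxa7: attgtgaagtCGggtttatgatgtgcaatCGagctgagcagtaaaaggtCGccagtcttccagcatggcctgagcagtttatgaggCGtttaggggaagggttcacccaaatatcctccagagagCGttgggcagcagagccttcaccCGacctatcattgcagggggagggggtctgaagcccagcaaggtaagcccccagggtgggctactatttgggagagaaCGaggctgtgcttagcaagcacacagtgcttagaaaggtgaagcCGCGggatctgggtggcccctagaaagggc
Hoxb4: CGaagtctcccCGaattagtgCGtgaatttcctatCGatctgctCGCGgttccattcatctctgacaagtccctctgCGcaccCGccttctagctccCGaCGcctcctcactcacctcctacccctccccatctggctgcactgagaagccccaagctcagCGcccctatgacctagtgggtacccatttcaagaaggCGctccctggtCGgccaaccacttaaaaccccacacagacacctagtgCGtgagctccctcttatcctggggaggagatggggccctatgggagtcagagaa
Hoxa13: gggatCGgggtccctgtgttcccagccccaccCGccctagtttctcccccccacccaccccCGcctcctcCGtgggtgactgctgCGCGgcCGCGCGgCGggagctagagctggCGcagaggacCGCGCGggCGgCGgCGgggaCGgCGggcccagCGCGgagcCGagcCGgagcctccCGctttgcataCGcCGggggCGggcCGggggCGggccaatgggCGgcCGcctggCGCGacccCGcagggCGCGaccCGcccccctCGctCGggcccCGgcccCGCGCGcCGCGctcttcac
The Hoxa7 promoter has 9 CG dinucleotides, that of Hoxb4 14 and that of Hoxa13 45. The region inside Hoxa7 began 723 bp from the start, and that inside Hoxb4 134 bp from it. The Hoxa13 region overlapped 270 bases of the promoter.

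The Hox clusters held peaks almost only in DP lists. DN 1 held 1 peak, DN 2 held 0, DP 1 held 10 and DP 2 held 17. Both DP lists lay above both DN lists, and the groups did not overlap, with 13.5 ± 4.95 peaks in DP and 0.5 ± 0.71 in DN cells (SD, n = 2). The difference of 13 peaks had an exact permutation p of 0.333, the smallest this design allows. Peak density over the whole genome, defined in the next paragraph, did not overlap between the groups either (exact permutation p = 0.333). It was 14.4 and 12.3 per Mb in DN 1 and DN 2 and 14.8 and 26.2 in DP 1 and DP 2. Relative to list length, the Hox counts still did not overlap. Per 10000 peaks of a list, the clusters held 0.258 and 0 in DN 1 and DN 2, against 2.52 and 2.42 in DP 1 and DP 2.

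Inside the clusters, without the flanks, peak density was 2.03 and 0 per Mb in DN 1 and DN 2 and 14.2 and 24.4 per Mb in DP 1 and DP 2. Over the genome, between the first and the last protein-coding gene of each chromosome, the same lists held 14.4, 12.3, 14.8 and 26.2 peaks per Mb. Over the 4 clusters together, the DP lists were thus close to their genome density, and the DN lists were below theirs. With the 50 kb flanks, density was 1.12 and 0 per Mb in DN 1 and DN 2 and 11.2 and 19.1 per Mb in DP 1 and DP 2. The clusters were uneven. DP 1 and DP 2 held 5 and 8 peaks inside Hoxa, 1 and 3 inside Hoxb, 1 and 0 inside Hoxc and 0 and 1 inside Hoxd. The pooled density therefore rests mostly on Hoxa.

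**Figure D1:**
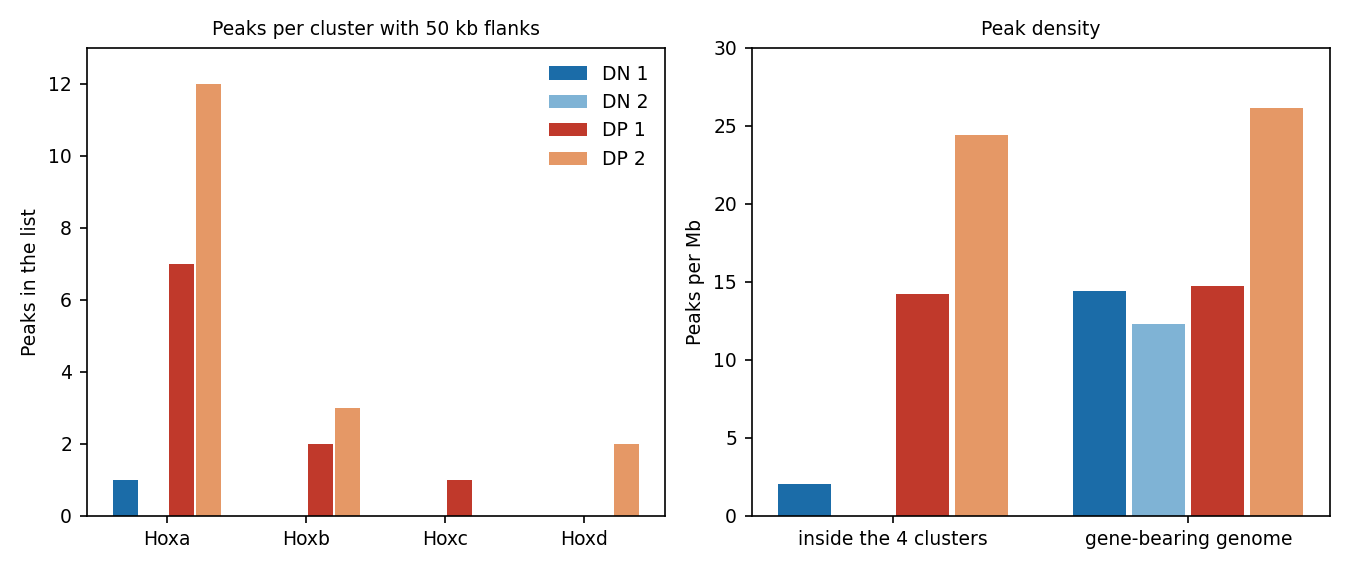
Left, the number of peaks (vertical axis) in each Hox cluster with its 50 kb flanks, 1 bar per list. Right, peaks per Mb inside the 4 clusters and over the gene-bearing genome. Hoxa has the tallest bars, with 7 and 12 peaks in DP 1 and DP 2, and inside the clusters the DN bars stand at 2.03 and 0 per Mb.

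Hoxa carried 20 of the 28 peaks (71.4%). DN 1 and DN 2 held 1 and 0 peaks there, and DP 1 and DP 2 held 7 and 12. Hoxb held 0 peaks in both DN lists, 2 in DP 1 and 3 in DP 2. In Hoxc, 1 peak was listed, in DP 1, and in Hoxd 2 peaks were listed, both in DP 2. DP lay above DN without overlap in Hoxa and Hoxb (exact permutation p = 0.333 each, 0.667 after Benjamini-Hochberg adjustment over the 4 clusters). For Hoxb the groups overlapped in the top 50% of each list, with 0 peaks in all 4, and DP 2 also fell to 0 when each list was limited to the shortest length or peaks at the largest p-value of a list were left out (exact permutation p = 1 in each). In Hoxc and Hoxd, 1 DP list was at 0 like the DN lists, so the groups overlapped (exact permutation p = 1).

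**Figure D2:**
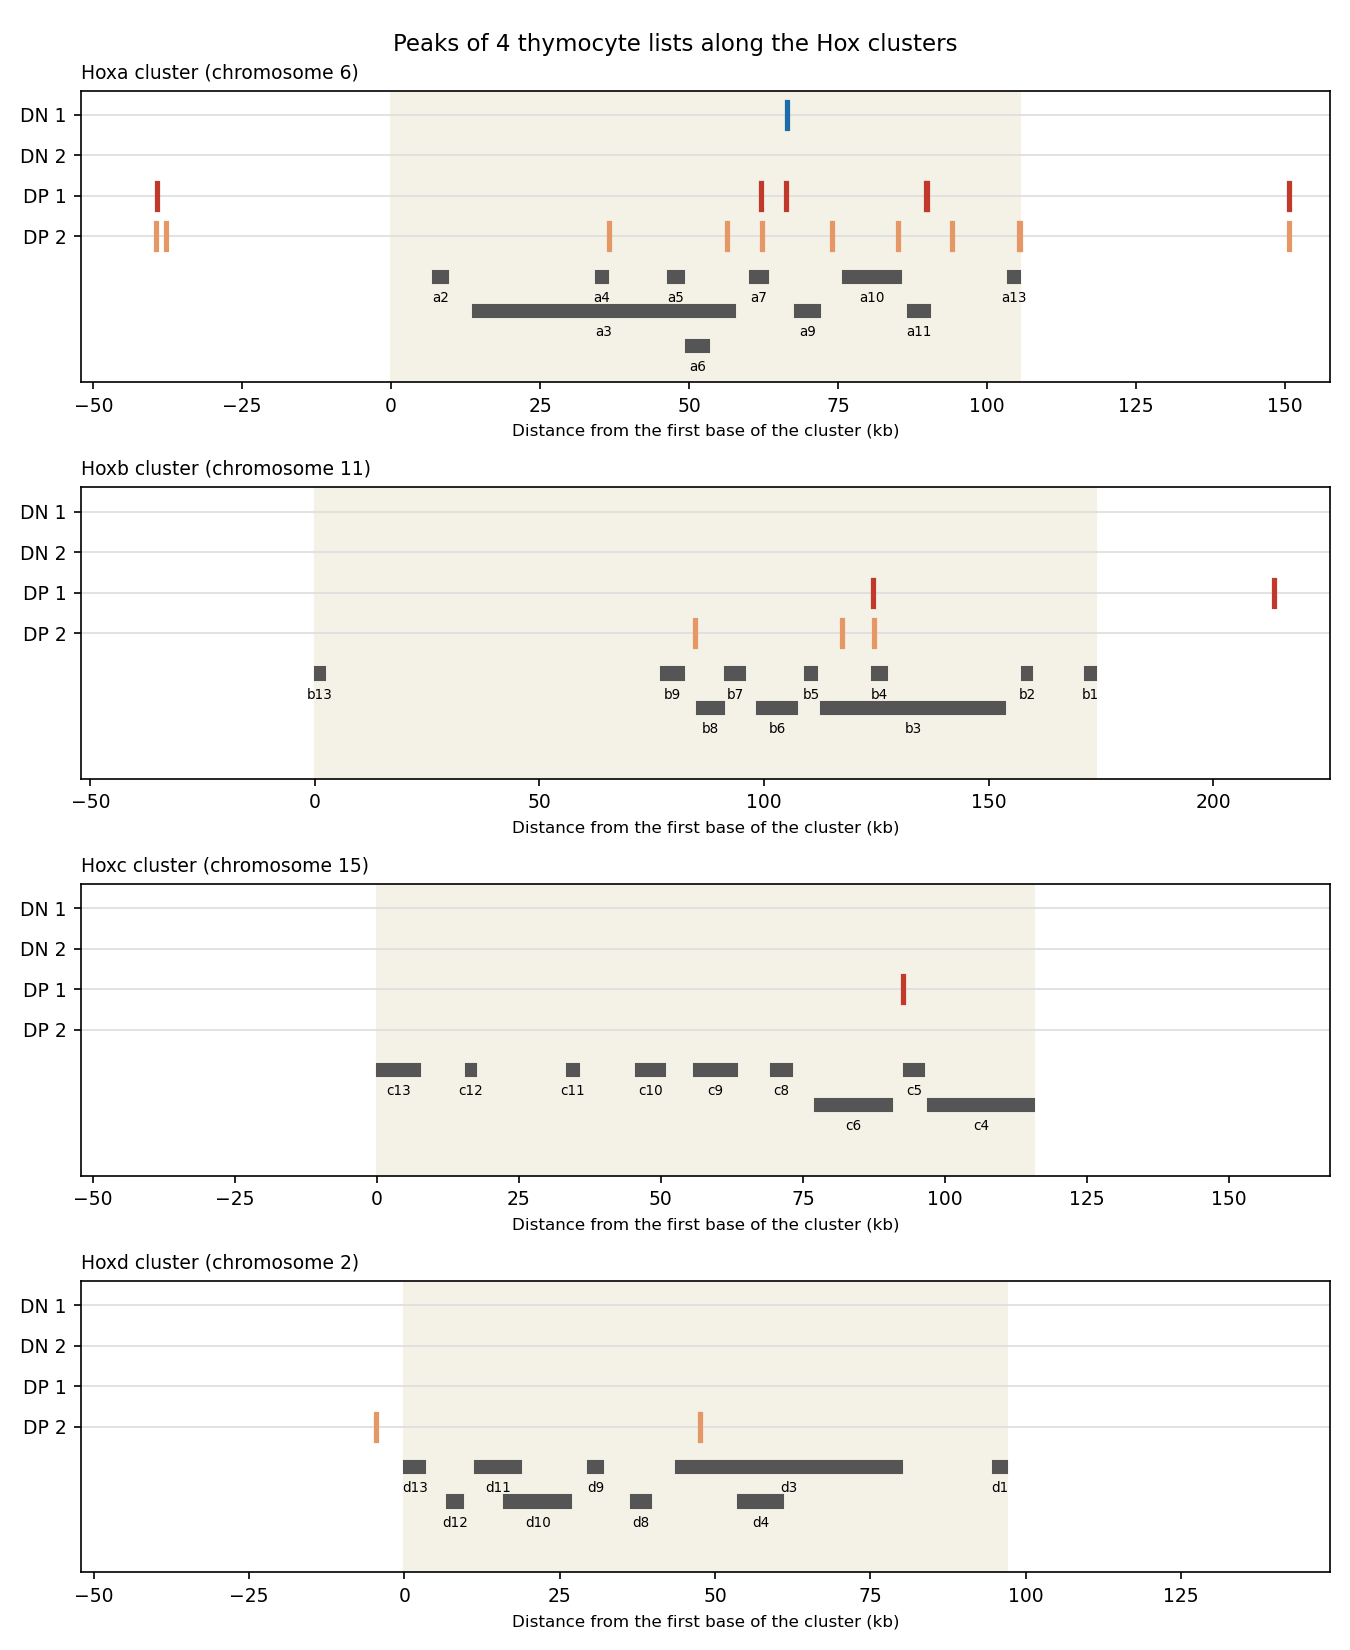
The 4 Hox clusters with 50 kb on either side, drawn to scale in kb from the first base of each cluster (shaded). Vertical ticks mark peak midpoints in the rows of the 4 lists, and grey bars mark the Hox genes (a7 is Hoxa7). 1 Hoxa gene and the peaks inside it are not drawn. DP ticks stand from Hoxa4 to Hoxa13 and in both flanks of Hoxa, Hoxb has ticks near Hoxb8 and Hoxb4, and the DN rows hold 1 tick, between Hoxa7 and Hoxa9.

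Of the 20 regions, 5 were held by both DP lists and neither DN list, against 7.44% of all regions of the genome. Regions held by both DN lists and neither DP list numbered 0, against 2.51% of the genome, and regions held by all 4 lists numbered 0, against 7.39%. A further 14 were held by a single list, 11 of them by DP 2 and 3 by DP 1. Regions held by 2 or more lists numbered 6 of 20, against 28.2% of the genome. Of the 5 regions of both DP lists, 4 were in Hoxa and 1 in Hoxb. The number of regions of both DP and no DN list depended on the lists: it was 16 without DP 1 and 8 without DP 2, when the remaining list stood for its group, and 1, the Hoxa7 region, in the top 50% of each list.

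Within Hoxa, the region of best rank lay inside Hoxa7 (chr6:52217051-52217850), whose product is a homeodomain factor of blood progenitors. Its peak was 600 bp wide in DP 2, at percentile 10.2 of the authors' p-values in that list (0 is the smallest p-value), and 750 bp wide in DP 1, at percentile 37.1. It was the 1 Hox region in the top 50% of both DP lists. Neither DN list held it.

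Of the other Hoxa regions of both DP lists, 2 were in the flanks and overlapped no annotated gene. One lay in the flank away from Hoxa13 (chr6:52115751-52116250), with percentiles of 64.0 in DP 1 and 80.8 in DP 2. The other lay 45.2 kb beyond Hoxa13 and 7.42 kb from Evx1, a homeobox gene next to the cluster (chr6:52305801-52306350). Its percentile was 21.9 in DP 2 and 85.4 in DP 1. Evx1 was thus the nearest gene of that region, and no Hox gene was.

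In Hoxb, both DP lists held a region over Hoxb4 (chr11:96318401-96318850), a gene known from blood stem cells. Its start lies inside the longer annotated span of Hoxb3, so the region falls in both genes. The peak was 450 bp wide at percentile 64.0 in DP 1, and 300 bp wide at percentile 80.8 in DP 2, where it was tied at the largest p-value of the list.

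The one DN peak lay between the end of Hoxa9 and the start of Hoxa7 (chr6:52221551-52222050, region with the DP 1 peak), 1.30 kb from Hoxa9. Hoxa9 encodes a partner of Meis1 in progenitors and leukaemia. The peak was 450 bp wide at percentile 56.3 in DN 1, and 300 bp wide at percentile 85.4 in DP 1, tied there at the largest p-value. DN 2 and DP 2 did not hold it. No Hox region was held by both DN lists.

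The regions of a single list were spread over both ends of the clusters. In DP 2 alone, regions lay at Hoxa4 (percentile 33.1), inside Hoxa10 54 bp from its start (percentile 16.9), and over the start of Hoxa13 (2 overlapping peaks, percentiles 28.7 and 80.8). The Hoxa13 gene is of paralog group 13 and acts in limb and hindgut. DP 2 alone also held regions next to Hoxb8, inside Hoxb3, inside the Hoxa3 span, over Gm52902 between Hoxa9 and Hoxa10, over Hoxa11os, inside Hoxd3, in the Hoxa flank, and 2.18 kb from Evx2 beyond Hoxd13. DP 1 alone held a region inside Hoxa11, 360 bp from its start, with 2 overlapping peaks both at percentile 85.4. It also held one next to Hoxc5 (percentile 64.0) and one 39.6 kb outside Hoxb1 (percentile 64.0).

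By paralog group, peaks inside the clusters nearest to groups 1 to 4 numbered 2 in DP 1 and 6 in DP 2, with 0 in each DN list. Those nearest to groups 5 to 8 numbered 2 and 2, with 0 in each DN list. For groups 9 to 13 there were 3 in DP 1, 4 in DP 2, 1 in DN 1 and 0 in DN 2. DP peaks were thus found near genes of all 3 ranges. Of the 39 genes, 14 were the nearest gene of at least 1 peak and 25 of none. Those 25 include all of the Hoxc genes except Hoxc5 and all of the Hoxd genes except Hoxd3.

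The median percentile of the Hox peaks was 64.0 in DP 1 and 80.8 in DP 2. In DP 2, 9 of 17 were tied at the largest p-value, against 38.5% of all peaks of that list, and 4 fell in the best 25% of the list. In DP 1, 4 of 10 were tied at the largest p-value, against 29.1% of the list, and 0 fell in the best 25%. Median width was 425 bp in DP 1 and 400 bp in DP 2, against 450 and 400 bp for all peaks of these lists. The p-values are the authors' own and were used only to rank peaks within a list.

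**Figure D3:**
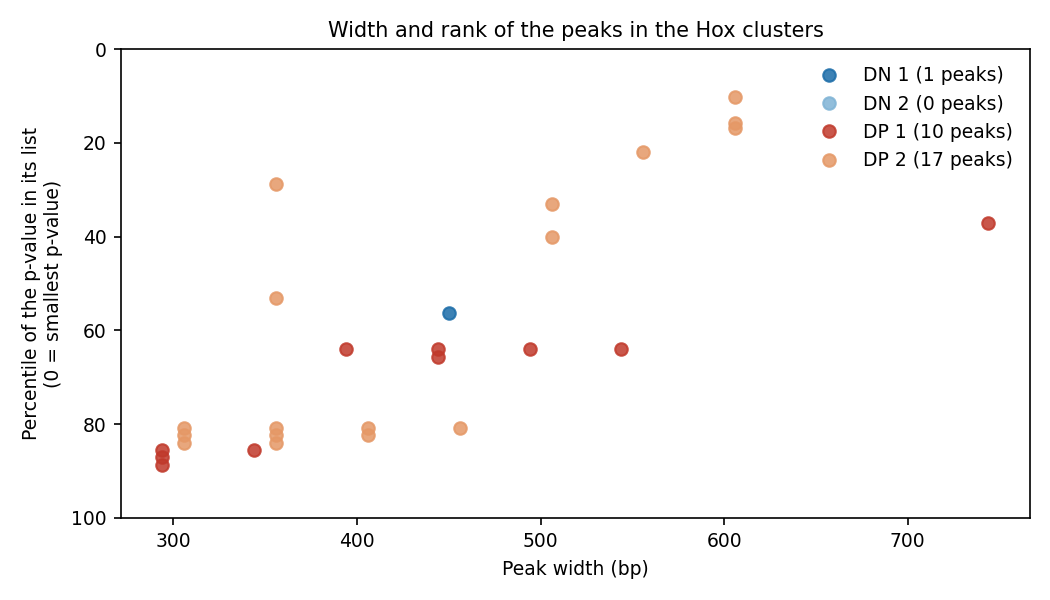
Each point is 1 of the 28 Hox peaks, with its width in bp (horizontal axis) and the percentile of its p-value in its own list (vertical axis, 0 at the top is the smallest p-value). Tied points are drawn slightly apart. The DP 2 peaks at 600 bp, with those at Hoxa7 and Hoxa10 among them, lie at percentiles 10.2 to 16.9, and rows of ties stand near the bottom.

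Few Hox genes had a peak at an end, that is a midpoint within 1000 bp of either end of the gene. DN 1 and DN 2 had such a peak at 0 of 39 genes, DP 1 at 3 (Hoxa11, Hoxb4 and Hoxc5) and DP 2 at 5 (Hoxa4, Hoxa10, Hoxa13, Hoxb4 and Hoxb8). The shares were 0% in both DN lists, 7.69% in DP 1 and 12.8% in DP 2, and the groups did not overlap (10.3 ± 3.63% in DP, n = 2, exact permutation p = 0.333). In the top 50% of each list the numbers were 0, 0, 0 and 3, so the groups overlapped (exact permutation p = 1). Hoxb4 was the 1 gene with a peak at an end in both DP lists and neither DN list, against 9.61% of protein-coding genes. Genes with a peak at an end in both DN and no DP list numbered 0, against 0.813%, and in all 4 lists 0, against 21.7%. In all, 32 Hox genes had no peak at an end in any list.

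Among all 21887 protein-coding genes, the shares with a peak at an end were 36.8 and 25.9% in DN 1 and DN 2 and 46.0 and 48.9% in DP 1 and DP 2. The Hox share was therefore below the share of all genes in every list, with a difference of -36.8 and -25.9 percentage points in DN 1 and DN 2 and of -38.3 and -36.1 in DP 1 and DP 2. These differences overlapped between the groups (exact permutation p = 0.667). In both DN lists the Hox share was 0 and could not be lower, so the DN differences are the all-gene shares with the sign changed. The overlap therefore cannot show whether Hox genes follow the shift of all genes. DN lists thus held fewer gene ends in general, and 0 of those of Hox genes.

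T cell markers moved in the same direction as the Hox peaks, and so did protein-coding genes in general. Of all protein-coding genes, 36.8 and 25.9% had a peak at an end in DN 1 and DN 2, and 46.0 and 48.9% in DP 1 and DP 2. Of 7 T cell genes, 1 and 2 had a peak at an end in DN 1 and DN 2, against 6 and 7 in DP 1 and DP 2. All 5 genes of the DP stage, such as Cd4 and Cd8a, had one in both DP lists, against 1 and 0 in the DN lists. Of the 4 genes fixed for the DN stage, 3, 0, 1 and 3 had one in DN 1, DN 2, DP 1 and DP 2. Il2ra, the gene of CD25, by which DN cells were sorted, had one in DN 1 and DP 2 but not in DN 2 or DP 1. It was the nearest gene of 8, 2, 9 and 9 peaks in DN 1, DN 2, DP 1 and DP 2. Of markers of other cells, 0 of 5 stromal genes had one in any list, and 0, 0, 2 and 1 of 6 myeloid genes in DN 1, DN 2, DP 1 and DP 2. For 6 B cell genes the numbers were 1, 1, 1 and 3, for 5 erythroid genes 1, 1, 1 and 2, and for 5 NK and innate genes 1, 1, 1 and 3. The part of list quality or of other cells in the Hox result was not tested.

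Promoter sequence was compared with that of other genes, since many Hox promoters are rich in CG. The RefSeq promoter table matched 22 of the 39 genes, with 24 promoters. The ratio of observed to expected CG dinucleotides had a median of 0.626 over these 24, from 0.257 for one Hoxd11 promoter to 1.02 for Hoxa5, against 0.567 over 21263 promoters of protein-coding genes. Of the 24, 11 (45.8%) reached 0.75, here called CpG-rich, against 33.6% of all. Among 11 Hox genes with a CpG-rich promoter, 0 had a peak at an end in DN 1 and DN 2, 1 in DP 1 and 3 in DP 2. Among all 6412 protein-coding genes with such a promoter, the shares were 57.8, 41.0, 76.2 and 78.2%. In all 4 lists, then, the CpG-rich Hox genes had a lower share with a peak than all CpG-rich genes, with 0, 0, 9.09 and 27.3%. Such a peak need not lie at the CpG-rich promoter, since either end of the gene counts. The CpG-rich start of Hoxa10 lay 5262 bp from the nearest region and that of Hoxb8 2805 bp. The start of Hoxa13 was covered by its DP 2 region.

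Short motifs were counted on both strands of these 300-base windows. The GC box GGGCGG was in 10 of 24 Hox promoters (41.7%), against 46.2% of all. The CCAAT box (CCAAT) was in 15 (62.5%), against 38.2%, and TATAAA was in 4 (16.7%), against 12.6%. The Hoxa13 promoter shown above holds the GC box and the CCAAT box, and those of Hoxa7 and Hoxb4 hold none of the 3 motifs in this window. A match describes the letters and not a bound site.

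The clusters also carry 6 microRNA genes, and in Hoxa, Hoxb and Hoxc 1 each lay within 1127 bp of a region, Mir196b, Mir10a and Mir615. The mature sequences of the miR-196 and miR-10 families, which occur in more than 1 cluster, are from RefSeq and are given with the seed (bases 2 to 8) in capitals, to show which cluster members share a seed.
miR-196b-5p: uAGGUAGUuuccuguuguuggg
miR-196a-5p: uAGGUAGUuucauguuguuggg
miR-10a-5p: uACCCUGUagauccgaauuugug
miR-10b-5p: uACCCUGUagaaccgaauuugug
The miR-196 sequences of Hoxa, Hoxb and Hoxc share a seed, and the miR-10 sequences of Hoxb and Hoxd share another. Mir196b (chr6:52230081-52230165) lay 481 bp from the DP 2 region over Gm52902, and Mir10a (chr11:96317165-96317274) lay 1127 bp from the Hoxb4 region of both DP lists. Mir615 (chr15:103014910-103015001) lay 960 bp from the DP 1 region next to Hoxc5. The other microRNA genes, Mir196a-1, Mir196a-2 and Mir10b, lay 10070 bp or more from any Hox region. No region overlapped any of the 6 microRNA genes.

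Other lists hold genes that act with or on Hox genes, and no test of their difference from the Hox genes was run. Their counts stand against 36.8, 25.9, 46.0 and 48.9% of all protein-coding genes with a peak at an end in DN 1, DN 2, DP 1 and DP 2. Of 9 genes of Hox cofactors (the TALE homeodomain genes of the Pbx, Meis and Pknox families), 5 and 3 had one in DN 1 and DN 2, and 6 and 7 in DP 1 and DP 2. Pbx4 and Pknox2 had one in all 4 lists, while Pbx2, Pbx3 and Pknox1 had one in both DP lists and neither DN list. Meis1 had 3 and 2 nearest peaks in the DN lists and 4 and 12 in the DP lists, and its end had a peak in DN 1 alone. Meis2 had 7, 3, 2 and 13 nearest peaks in DN 1, DN 2, DP 1 and DP 2, so the DP lists did not both lie above the DN lists for this gene.

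Of 12 trithorax genes and genes otherwise linked to MLL, 5 and 3 had a peak at an end in DN 1 and DN 2. In DP 1 and DP 2 the numbers were 10 and 9. Dot1l, Mllt1, Mllt3 and Aff1 in this list are not subunits of the MLL complex. Dot1l, a histone H3 methyltransferase, was the nearest gene of 0 peaks in DN 1 and DN 2 and of 4 in DP 1 and in DP 2, and Aff1 had 8 and 5 against 15 and 11. Of 26 Polycomb genes the numbers were 16, 9, 21 and 23. Pcgf5 had 5 and 0 nearest peaks in DN 1 and DN 2 against 10 and 10 in DP 1 and DP 2, and Jarid2 had 2 and 0 against 7 and 6. Dot1l, Aff1, Pcgf5 and Jarid2 were named for their large DP minus DN sums, so their differences do not stand for their lists. Some trithorax and Polycomb genes had more nearest peaks in the DN lists. Genes with a peak at an end in both DP lists and neither DN list numbered 3 of 9 cofactors, 5 of 12 trithorax and MLL-linked genes and 5 of 26 Polycomb genes, against 9.61% of all protein-coding genes. In both DN and neither DP list they numbered 0 in each of these lists, against 0.813% of all.

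Of 10 cohesin and CTCF genes, which shape chromatin loops, 5, 2, 6 and 6 had a peak at an end in DN 1, DN 2, DP 1 and DP 2. Of 6 retinoic acid receptor genes, whose ligand activates anterior Hox genes, 1, 0, 1 and 2 had one. Ctcf had 1 and 0 nearest peaks in the DN lists and 2 and 3 in the DP lists. Rarb had 2, 7, 1 and 11.

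The most similar comparison was with 55 other developmental homeobox genes, such as the Irx, Lhx, Nkx and Dlx genes, which are also Polycomb targets in many tissues. Of these, 5 and 3 had a peak at an end in DN 1 and DN 2 (9.09 and 5.45%), and 5 and 7 in DP 1 and DP 2 (9.09 and 12.7%). In DP lists their share was near that of Hox genes, and in DN lists it was above it. The Hox share minus theirs was -9.09 and -5.45 percentage points in the DN lists and -1.40 and 0.093 in the DP lists, without overlap (exact permutation p = 0.333, the smallest possible). Because the Hox share was 0 in both DN lists, the DN values are the shares of the other homeobox genes with the sign changed. They rest on 5 and 3 of 55 genes, so the contrast cannot show a shift particular to Hox genes. Among the other homeobox genes 2, Gsx1 and Pdx1, had a peak at an end in both DN lists and neither DP list, and 2, with Irx1 among them, in both DP and neither DN list. Of all protein-coding genes these classes held 0.813 and 9.61%, and the 3 genes were named after their values were seen. Irx3 had 0 nearest peaks in the DN lists, 3 in DP 1 and 21 in DP 2, and Lhx8 had 3, 0, 3 and 15, both named for their large DP minus DN sums. Their peaks thus came mostly from DP 2, the longest list.

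**Figure D4:**
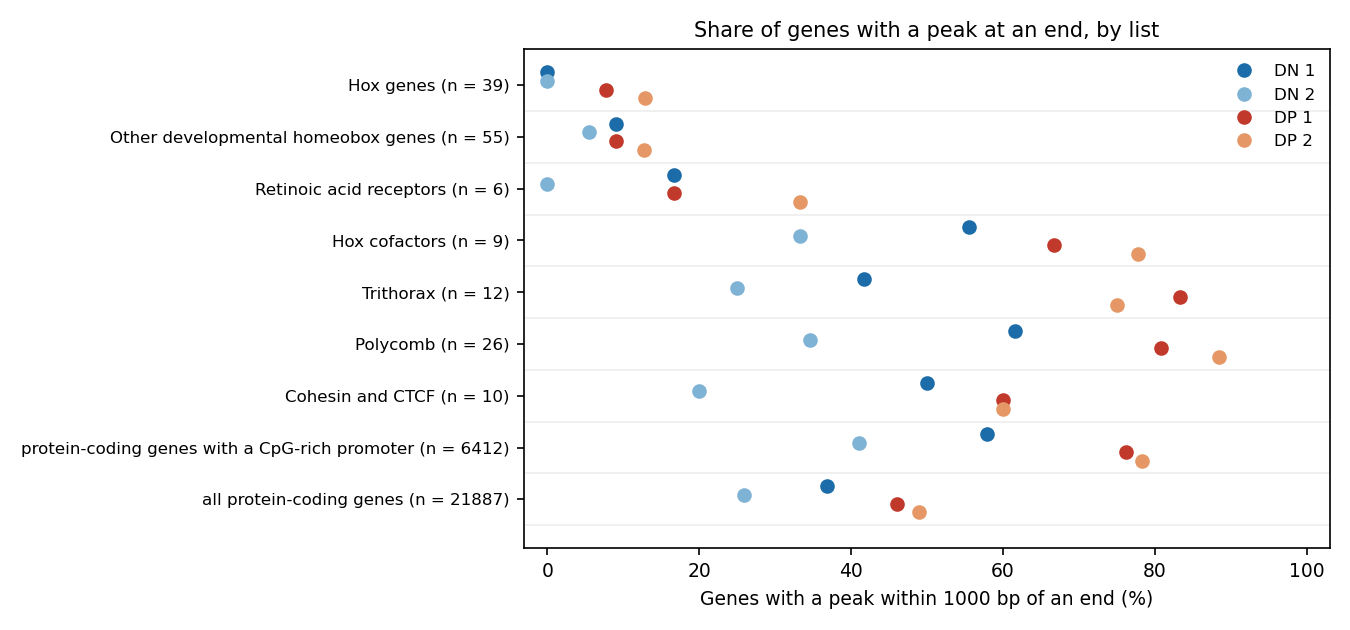
The share of genes (horizontal axis, %) with a peak within 1000 bp of an end, for each gene list (rows, with the number of genes) and each list of peaks (colours). Hox genes and other developmental homeobox genes lie at the left, at 0 to 12.8%, while cofactor, trithorax and Polycomb genes lie further right, at 25 to 88.5%.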

How the data were processed

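Each sample has its own deposited list of peak positions with the authors' p-value per peak (1e-12 to 0.00089), used here for ranks within a list. The submitters' processing notes name mm10, Bowtie2 and Picard (no version or role). The deposited names hold the word PeakDEck. Caller settings and read filters are not given here.

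Peaks sharing at least 1 bp were merged on chromosomes 1 to 19, X and Y. A gene's nearest peaks are those closest to either of its ends, within 100 kb. Coordinates count from 1. Groups came from the labels, and lists shared 6.26% or fewer identical peaks. Group differences were tested by two-sided exact permutation over samples. Named were Hox genes, genes next to their regions and, by the largest DP minus DN sum of nearest peaks, up to 4 members of other lists; cofactors were also named by class. Some of these genes are counted in the totals but not reported here by name. The Hox genes and the lists were chosen with earlier results of these data known. Alternatives changed list length, overlap, merging, flank, gene-end distance, scale and the lists used. The procedure was tested on simulated lists. Same-numbered lists deviated together at a correlation of 0.0207 over 107621 regions, and the labels name no shared animal or day. Scripts ran in Python 3.11.15 with pandas 2.3.3, numpy 2.4.6, matplotlib 3.10.9 and scipy 1.17.1.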

Additional observations from a re-analysis of the deposited data

How the results depend on the processing

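The DP minus DN differences kept their direction in 66 of 71 alternatives, were 0 in 4 and reversed in 1. The 66 include those of the replicate block, which pairs same-numbered lists and by arithmetic cannot change a mean difference. With a flank of 100 kb the Hoxd difference went from 1 to -0.5 peaks. It was 0 for Hoxb and Hoxc in the top 50% of each list, 0 for Hoxc without DP 1 and 0 for Hoxd without DP 2. Of the difference of 13 peaks over the 4 clusters, 4 remained in the top 50% (0, 0, 1 and 7 peaks in DN 1, DN 2, DP 1 and DP 2), 6 when each list was cut to the shortest length and 6.5 without peaks at the largest p-value of their list, an alternative chosen after seeing the data. Leaving out each list gave 9.5 to 16.5 peaks for all clusters, 6.5 to 11.5 for Hoxa, 2 to 3 for Hoxb, 0 to 1 for Hoxc, 0 to 2 for Hoxd and 3 to 5 genes with a peak at an end. That number of genes was 1.5 in the top 50%, 2.5 with the shortest length and 8.5 within 2500 bp of an end. The 5 regions of both DP and no DN list became 1 in the top 50%, 2 with the shortest length or without the largest p-values, 3 with a flank of 0 or 10 kb, and 5 to 16 when a list was left out (16 without DP 1, 8 without DP 2). Regions in all 4 lists went from 0 to 2 with a flank of 100 kb. With the replicate block the difference is 13 peaks by construction, because the mean of the paired differences equals the difference of the means. The exact sign-flip p was 0.5, the smallest that 2 pairs allow, so the block adds no check of the result. Depth cannot be judged from these lists.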

Other observations

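Pooled over the 4 clusters, their neighbours held peaks in all 4 lists. From 50 to 100 kb outside there were 3, 4, 5 and 8 peaks in DN 1, DN 2, DP 1 and DP 2. The 3 and 4 DN peaks all lay beyond Hoxd. From 100 to 200 kb there were 5, 5, 12 and 15 peaks. Densities were 7.5, 10, 12.5 and 20 per Mb from 50 to 100 kb, and 6.25, 6.25, 15 and 18.75 from 100 to 200 kb. Over the genome they were 14.4, 12.3, 14.8 and 26.2 per Mb, so the DN lists stayed below theirs. At the first 50 kb the DN lists held 0 and 0. Beyond Hoxd, peaks from 50 to 200 kb outside lay nearest to Mtx2, with 4, 3, 2 and 2 in DN 1, DN 2, DP 1 and DP 2, and to Lnpk, with 1, 3, 1 and 3, so that DN lists held peaks there although they held none in Hoxd itself. Beyond Hoxb they lay mostly nearest to Skap1, an adaptor protein gene of T cells, with 0 and 0 in the DN lists against 3 and 7 in the DP lists. Beyond Hoxa they lay nearest to Skap2, a related adaptor gene, with 0, 1, 1 and 3. Beyond Hoxc the nearest genes were Calcoco1, with 1, 2, 3 and 2, Smug1, with 1, 0, 2 and 3, and Cbx5, a heterochromatin protein gene, with 0, 0, 2 and 1. These distances were chosen after the data were seen, and no test was run on them.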
